A study of Mus musculus with 1 sample.

Results

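The Psca and Prss22 high cells are 188 epithelial cells of a single-cell RNA library from wild type mouse gastric organoids, picked out of 1892 kept cells by their summed counts of Psca and Prss22. They made up 9.94% of the kept cells (exact Clopper-Pearson 95% interval 8.63 to 11.4%) and held 10.5% of the gene counts. The kept barcodes are those with 500 or more detected genes in which no more than 20% of unique molecular identifiers (UMIs, each standing for 1 captured RNA molecule) came from mitochondrially encoded genes. In each kept cell the UMIs of 8 small gene sets were summed per 10000 gene UMIs, put on a natural log scale after adding 1, and expressed as a z score over all kept cells. A cell was chosen when the Psca and Prss22 set had the highest of its 8 z scores and that z was at least 1. The other 1704 kept cells were the comparison. Since high Psca and Prss22 were the choice itself, and every other gene was counted in the same cells, all values below describe this library and none carries a test.

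Organoids are balls of epithelium grown from tissue stem cells in a gel. These carried the wild type genotype and no treatment, and were harvested 7 days after seeding and taken apart in 0.05% trypsin-EDTA for 30 min at 37 °C, according to the labels. Only this 1 library was analysed, so there is no replicate, and the intervals given below are exact 95% intervals that cover counting error only. No sample labelled with another genotype named in the series text was analysed here.

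Psca (prostate stem cell antigen) encodes a small surface protein held in the membrane by a lipid anchor, and belongs to the Ly6 family, whose genes lie side by side on mouse chromosome 15. Prss22 encodes a secreted serine protease made by epithelia of the airway and gut. Aqp5 encodes a water channel of secretory epithelia and is known in the mouse stomach from the bases of pyloric glands, where it marks stem cells. Psca in turn is a known product of gastric epithelium.

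The library held 20118334 gene UMIs over the kept cells. The chosen cells had a median of 8862.5 UMIs and 2316 genes per cell, against 8437.5 UMIs and 2208.5 genes in the other cells, so depth differed little between them. Their median mitochondrial share was 3.18%, against 4.13% in the other cells. Of 12 multiplexing tags in the matrix, CMO301 or CMO302 was the highest in every kept cell, and CMO301 was the highest in 104 of the 188 chosen cells (55.3%, 47.9 to 62.6%) and in 56.2% of the others. The labels do not say what separates the tags, whether suspensions, organoid lines or genotypes. Wild type is the genotype that the labels give for the sample as a whole, and it was not checked tag by tag. Tag values are shown as a split of 1 library and not as replicates. Parietal, chief, tuft and non-epithelial markers were at or near 0: in the chosen cells the 6 chief markers summed to 1 UMI, the 5 parietal markers to 2, the 7 tuft markers to 26, and the 14 non-epithelial markers to 3. None of these 4 lists had a gene with 200 UMIs over the kept cells. The 8 enteroendocrine markers summed to 72 UMIs in the chosen cells, all of them from Cpe, a carboxypeptidase that processes peptide hormones. That is 34.0 CPM (UMIs per 1000000 gene UMIs, both summed over a set of cells; 26.6 to 42.8) against 18.0 CPM (16.1 to 20.1) in the other cells, and the ratio for Cpe was 1.92, or 1.95 against the cells with no raised set described below. Chga, which defines these cells, had no UMI in the library, nor had 3 others of the 8, and the part of this marker in the results was not tested.

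The plot of Psca against Prss22 by cell shows how the choice was made.

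**Figure D1:**
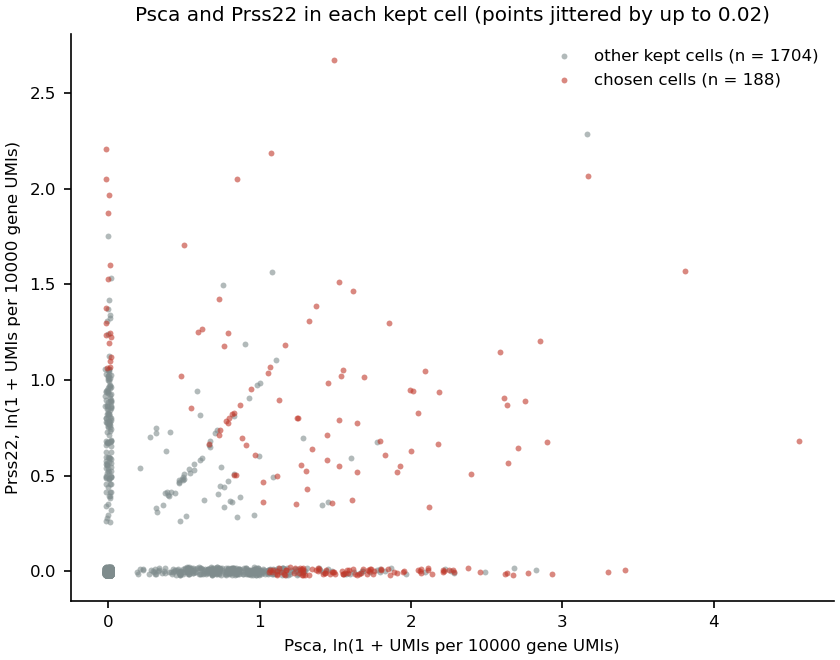
Each point is 1 kept cell, with Psca on the horizontal axis and Prss22 on the vertical axis, both as ln(1 + UMIs per 10000 gene UMIs), and jittered by up to 0.02. The 188 chosen cells (red) run along both axes and between them, and most of the 1704 other cells (grey) lie at the origin or at low values of 1 of the genes.

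Psca carried most of the choice. It was at 579 CPM (547 to 612) in the chosen cells and 44.5 CPM in the others. Per cell it ran from 0 to 93.7 UMIs per 10000 with a median of 3.26 in the chosen cells, and its median was 0 in the others. Prss22 was at 88.6 CPM (76.4 to 102) and 15.6 CPM. A Psca UMI was present in 91.5% of chosen and 22.6% of other cells, and a Prss22 UMI in 51.6% and 12.3%. After every cell was thinned to 3000 UMIs, which left out 3 chosen and 54 other cells, these shares were 65.4% and 9.09% for Psca, and 19.5% and 3.76% for Prss22. No cell type known to lack both genes was present to measure free RNA, so the level of stray UMIs is unknown. On its annotated strand, Psca lies at chr15:74714839-74717069 (plus) and Prss22 at chr17:23993534-23998100 (minus) in GRCm38.

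Both genes were seen together in 81 chosen cells, Psca alone in 91 and Prss22 alone in 16. The 3 groups differed in depth, with medians of 11891, 8034 and 6127.5 UMIs, and deeper cells show both genes more often whatever their levels. Over all kept cells, a Prss22 UMI was found in 26.6% (22.9 to 30.4%) of the 557 cells with a Psca UMI and in 11.9% (10.2 to 13.8%) of the 1335 cells without one. At 3000 UMIs per cell the shares were 7.75% (4.86 to 11.6%) and 4.92% (3.90 to 6.12%), and their intervals overlapped. The chosen cells are therefore mainly Psca high cells, of which some also show Prss22.

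The cut falls in a continuous range. The z of the chosen cells ran from 1.02 to 6.44 with a median of 1.83, and the nearest cell left out for a low z was at 0.960. In all, 31 chosen cells had a z under 1.25, and 29 cells whose highest set was Psca and Prss22 lay between 0.75 and 1. The 20 chosen cells nearest the cut had Psca at 139 CPM, Prss22 at 64.7 CPM and Aqp5 at 1113 CPM. The 20 cells just outside had them at 138, 30.6 and 804 CPM. Of 290 cells with a z of at least 1, 102 were not chosen because another set stood higher, most often the set of Cyba, Gsta1 and Gsta2 (28 cells) or of Ndrg1 and Ly6m (25 cells). When the rule was applied to the thinned cells it chose 196, and 124 of those were among the 188.

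Aqp5, the marker that the rule did not use, hardly followed the choice. It was at 1343 CPM (1295 to 1394) in the chosen cells and 1120 CPM (1104.6 to 1136) in the others, a ratio of 1.20 (1.15 to 1.25). Per cell it ran from 0 through a median of 11.1 to 74.99 UMIs per 10000 in the chosen cells, and from 0 through 8.96 to 88.6 in the others, so the spread between cells is far wider than the difference. An Aqp5 UMI was present in 94.7% of chosen and 90.6% of other cells. Aqp5 was higher in the cells chosen by Scgb3a1 and Cyp2f2, at 1697 CPM (1650 to 1745), and at 1350 CPM (1291 to 1412) in the cells chosen by Cxcl2 and Cxcl5, an interval that overlaps that of the Psca and Prss22 high cells. Among the 9 kinds of cell that the 8 sets define, the Psca and Prss22 high cells ranked 3 for Aqp5. Of the 3 genes that label these cells, Aqp5 therefore does not set them apart, and only Psca and Prss22, which chose them, do.

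A second comparison was needed for the rest of the genes. The rule sends a cell with strong mitotic, replication, metallothionein or chemokine genes to another kind even if its Psca is high, so those genes are low in the chosen cells by construction. Of 17 genes of the rule with enough counts, 14 were at most 1/1.5 times as high in the chosen cells, as were 4.64% of all genes with enough counts. The 523 cells in which none of the 8 sets reached a z of 1 are used below as the cells with no raised set. They lie below 1 for every set by choice, whereas a chosen cell may reach 1 in a set other than its highest: 16 chosen cells did so for the replication set, 4 for the mitotic, 18 for the Ndrg1 and Ly6m and 13 for the metallothionein set. The choice of cells therefore bears on genes of those programs in both comparisons. Their median depth was 8689 UMIs, and Aqp5 in them was at 1226 CPM, which gives a ratio of 1.10 (1.05 to 1.14).

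Of 6682 genes with at least 200 UMIs over the kept cells, 146 (2.18%) were at least 1.5 times as high in the chosen cells as in the others, and 310 (4.64%) at most 1/1.5 times as high. Against the cells with no raised set the counts were 228 (3.41%) and 201 (3.01%). In both comparisons 99 genes were past the higher bound and 163 past the lower bound. The median ratio over all 6682 genes was 0.988 and 1.01. Among the 146, 138 were above 1 within the CMO301 cells and within the CMO302 cells alike, and 72 were at least 1.5 in both. These are counts past a fold and not significant calls. The genes were picked on both tags pooled, and the cells with no raised set are part of the other cells. Agreement across tags or comparisons is therefore partly built in, here and in such counts below.

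Among 1114 genes with at least 2000 UMIs, a minimum chosen after values were seen and with the genes of the rule left out, 21 (1.89%) were at least 1.5 times as high in the chosen cells, a share near the 2.18% of all genes. All 21 were above 1 in both tags and against the cells with no raised set, and 13 stayed at 1.5 or more there. Another 13 of the 1114 (1.17%, against 4.64% of all genes) were at most 1/1.5 times as high. All of those were below 1 in both tags, 11 were below 1 against the cells with no raised set, and 7 stayed at 1/1.5 or less there. S100a6, a calcium-binding protein, led the 21 higher genes at 5202 CPM (5106 to 5300) against 2716 CPM in the other cells and 2637 CPM in the cells with no raised set. Per cell S100a6 ran from 4.68 through a median of 41.8 to 301 UMIs per 10000 in the chosen cells, and from 0 through 19.9 to 571 in the others. The middle of the range moved up while the highest single cell was among the others. Krt7, a keratin of simple duct-like epithelium, was at 954 CPM (913 to 997) against 502 and 484 CPM. Msln (mesothelin), another lipid-anchored surface protein, was at 305 CPM (282 to 329) against 169 and 159 CPM.

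**Figure D2:**
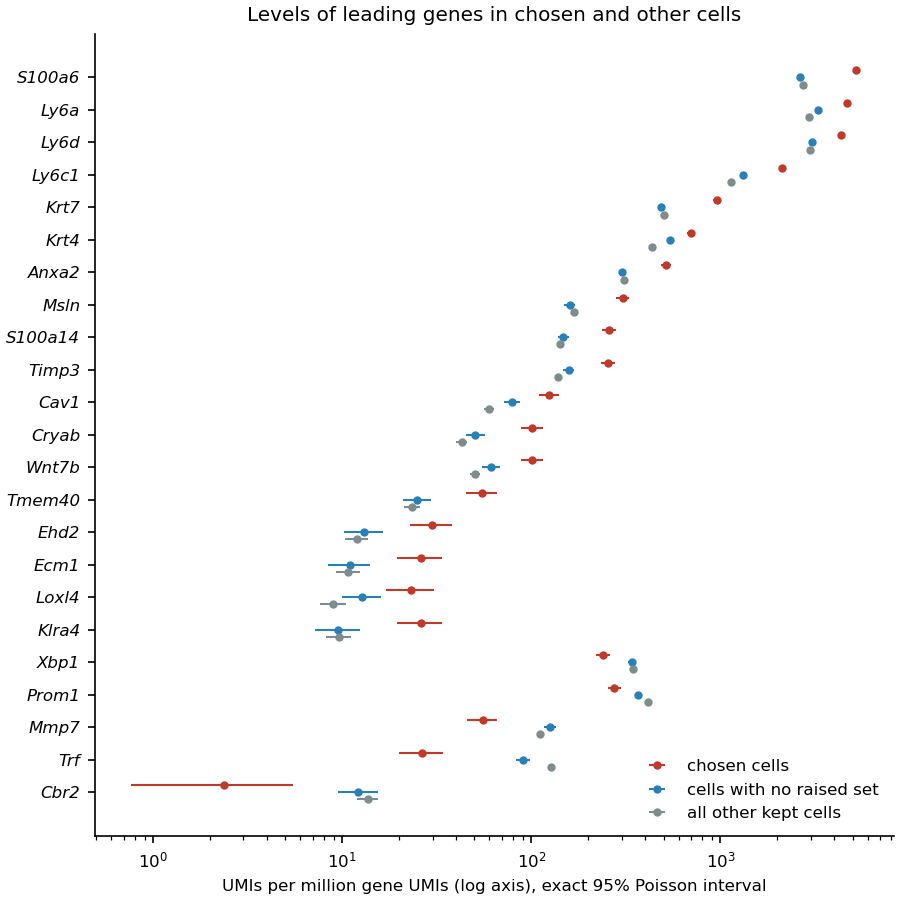
Horizontal axis, CPM on a log scale; each row is a gene, with the level in the chosen cells (red), the cells with no raised set (blue) and all other kept cells (grey) and exact 95% Poisson intervals. From S100a6 down to Klra4 the red point lies right of the other 2, and from Xbp1 to Cbr2 it lies left of them.

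Of 17 listed genes with a Ly6 or uPAR domain, the family of Psca, 8 had enough counts, and 1 of these, Ly6m, was used by the rule. Of the other 7, 3 (Ly6c1, Ly6a and Lynx1) were at least 1.5 times as high (2.18% of all genes were) and none was at most 1/1.5 (4.64% of all genes). Against the cells with no raised set only Ly6c1 was past 1.5. All 7 were above 1 in both comparisons, and their median ratio was 1.47 and then 1.42, where the medians over all genes were 0.988 and 1.01. Ly6c1 was at 2103 CPM (2041 to 2165) against 1137 CPM, a ratio of 1.85 (1.79 to 1.91), and per cell its median was 18.8 UMIs per 10000 in the chosen and 9.60 in the other cells. Ly6a (Sca-1), a marker of fetal and regenerating gut epithelium, was at 4675 against 2955 CPM, a ratio of 1.58 (1.55 to 1.62). Ly6d was at 4335 against 2958 CPM, a ratio of 1.47 (1.43 to 1.498). Lynx1, which acts on nicotinic receptors, was at 65.5 against 39.2 CPM. Ly6e was at 2309 against 1879 CPM. Against the cells with no raised set the ratios were 1.60 for Ly6c1, 1.42 for Ly6a, 1.42 for Ly6d, 1.45 for Lynx1 and 1.21 for Ly6e.

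These family members are also neighbours. Within 1000 kb of Psca on either side the annotation lists 35 protein-coding genes, of which 9 had no UMI and 9 had at least 200. Of those 9, Psca and Ly6m were used by the rule. Of the other 7, 3 were at least 1.5 times as high in the chosen cells (Lynx1, Ly6a and Ly6c1), none at most 1/1.5 and 6 above 1, where 2.18% and 4.64% of all genes were past those bounds. These 3 are the Ly6 genes already counted above. Them6, which starts 6.37 kb from the start of Psca, was at a ratio of 1.27 (1.003 to 1.60), and Arc on the other side at 0.853 (0.640 to 1.12). Ly6 genes are close copies of each other, and how the deposited counts treat reads that fit several of them is not given in the sources used here, so the split among them is uncertain.

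Of 6 keratins with enough counts, 5 were above 1 and Krt7 alone was past 1.5 (2.18% of all genes were). The median was 1.35 (1.21 against the cells with no raised set). Krt19 was at 729 against 513 CPM and Krt18 at 2249 against 1748 CPM. For Krt19 the cells chosen by Cyba, Gsta1 and Gsta2 were higher, at 861 CPM (810 to 915). Krt4, a keratin of stratified and foregut epithelium listed with the squamous genes, was at 697 against 436 CPM, a ratio of 1.60 (1.51 to 1.69), but 1.29 against the cells with no raised set. Of 13 fetal and regenerative genes with enough counts, 5 were at least 1.5 times as high, 1 was at most 1/1.5, and 11 were above 1, where 2.18% and 4.64% of all genes were past those bounds. The 5 were S100a6, Ly6a, Msln, Spp1 and Basp1. The median was 1.34, and 1.42 against the cells with no raised set, beside 0.988 and 1.01 over all genes. Clu (clusterin), the secreted chaperone that marks revival stem cells of the intestine, was at 3167 against 2546 CPM, a ratio of 1.24 (1.21 to 1.28). That excess lay in the 80 chosen cells with a z of 2 or more, at 4293 CPM, whereas the 108 with a z under 2 were at 2402 CPM (2318 to 2489), below the other cells. Clu was highest in the cells chosen by Cyba, Gsta1 and Gsta2, at 6404 CPM. Spp1 (osteopontin) was at 166 against 88.6 CPM and 42.6 CPM in the cells with no raised set, but 38.9% of its UMIs in the chosen cells came from 1 cell, and its ratio was 1.32 in the CMO301 and 2.49 in the CMO302 cells. The cells chosen by the replication set were higher for Spp1, at 206 CPM (185 to 230).

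The S100 and annexin families were examined after the leading genes had been seen. Of 8 S100 genes with enough counts, all were above 1 and 5 at least 1.5 (S100a6, S100a14, S100a16, S100a4 and S100a1), where 2.18% of all genes were. The count holds S100a6, which prompted it. S100a14 was at 257 (236 to 279) against 142 CPM and S100a11 at 2367 against 1667 CPM. For S100a14 the Ndrg1 and Ly6m cells were as high, at 275 CPM (254 to 299). The S100 median was 1.57, beside 0.988 over all genes. Of 8 annexins, all were above 1, with a median of 1.22, and 2 were at least 1.5: Anxa2 was at 513 against 307 CPM and Anxa5 at 245 against 151 CPM.

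**Figure D3:**
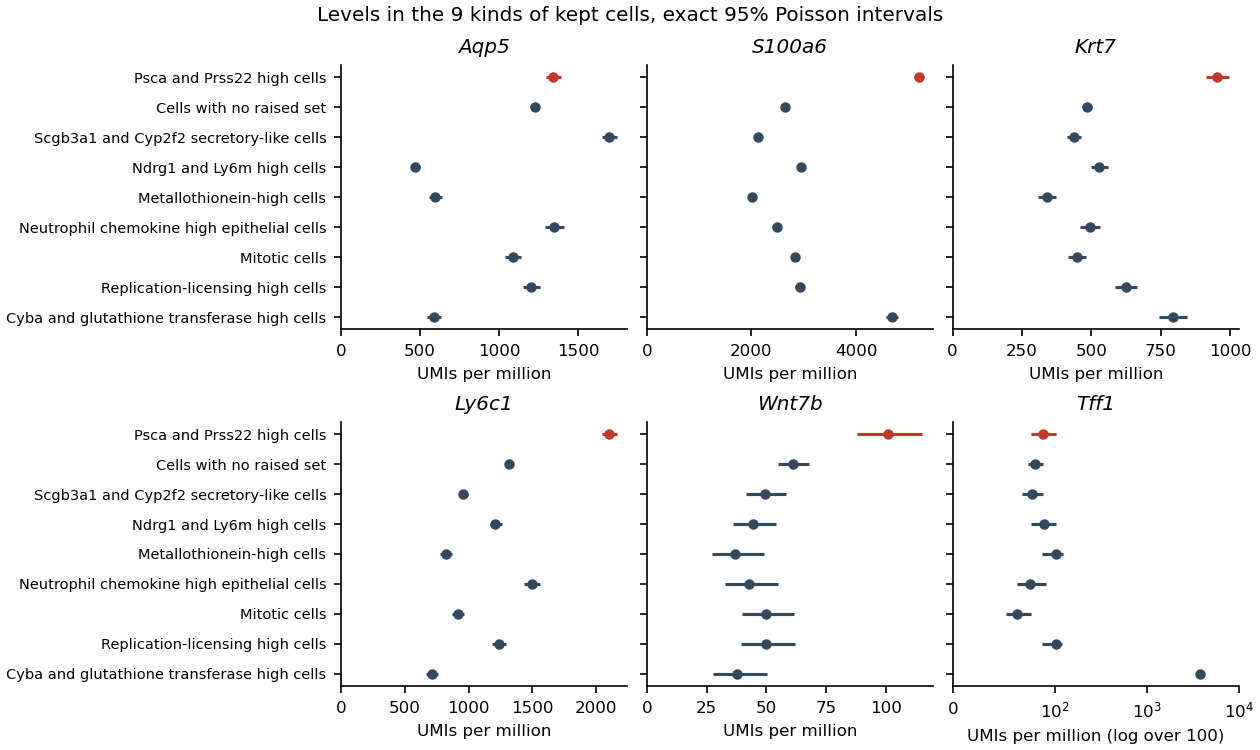
Each panel is 1 gene and each row 1 of the 9 kinds of kept cell; the horizontal axis is CPM, with the Tff1 axis on a log scale above 100, and bars are exact 95% Poisson intervals. The Psca and Prss22 high cells (red) are highest for S100a6, Krt7, Ly6c1 and Wnt7b, rank 3 for Aqp5, and rank 5 for Tff1.

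Over the 9 kinds of cell, the Psca and Prss22 high cells were highest, with an interval apart from the next kind, for S100a6, Krt7, Ly6c1, Ly6a, Ly6d, Msln, Anxa2, Krt18 and Krt4. Of other genes named in the text, Cav1, Wnt7b, Loxl4, Mall, Cryab, Col4a2, S100a11 and Anxa5 were highest with an interval apart. Ehd2, Ecm1, Porcn, Wnt4, Timp3, Col4a1, Ccnd1, Lynx1, Slpi, Tmem40 and Mab21l4 were highest too, but their intervals overlapped those of the next kind. The next kind differed from gene to gene. For S100a6, Krt7 and Msln it was the cells chosen by Cyba, Gsta1 and Gsta2, at 4684, 794 and 250 CPM. For Ly6c1 and Ly6a it was the Cxcl2 and Cxcl5 cells, at 1495 and 3966 CPM. For Ly6d it was the Scgb3a1 and Cyp2f2 cells at 3819 CPM.

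Levels were also compared over 4 groups split by UMIs of Psca and Prss22 and by the choice. The groups are not ordered by amount alone. The unchosen cells with a UMI include the 102 with a z of at least 1 in which another set stood higher. S100a6 was at 2286 CPM in the 1176 cells with neither UMI, 3366 CPM in the 528 cells with a UMI that were not chosen, 4467 CPM in the 108 chosen cells with a z under 2, and 6284 CPM (6117 to 6454) in the 80 with a z of 2 or more. Krt7 went from 419.7 through 626 and 828 to 1141 CPM over the same 4 groups. Msln went from 149 through 198 and 227 to 418 CPM. Wnt7b went from 44.1 through 59.8 and 93.5 to 112 CPM. Ly6d was near level in the cells that were not chosen, at 2930 and 3001 CPM, and then at 3754 and 5190 CPM. Aqp5 was at 1138 and 1093 CPM in the cells that were not chosen and at 1270.5 and 1451 CPM in the chosen ones. The 4 groups had median depths of 7588.5, 11687, 9140 and 8788 UMIs, and the part of depth in the first step was not tested. Between the last 2 groups, whose depth was close, the intervals were apart for S100a6, Krt7, Msln, Ly6d and Aqp5. They overlapped for Wnt7b, at 77.4 to 112 and 90.6 to 137 CPM. The intervals of Msln overlapped between the cells with a UMI that were not chosen and the chosen cells with a z under 2.

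**Figure D4:**
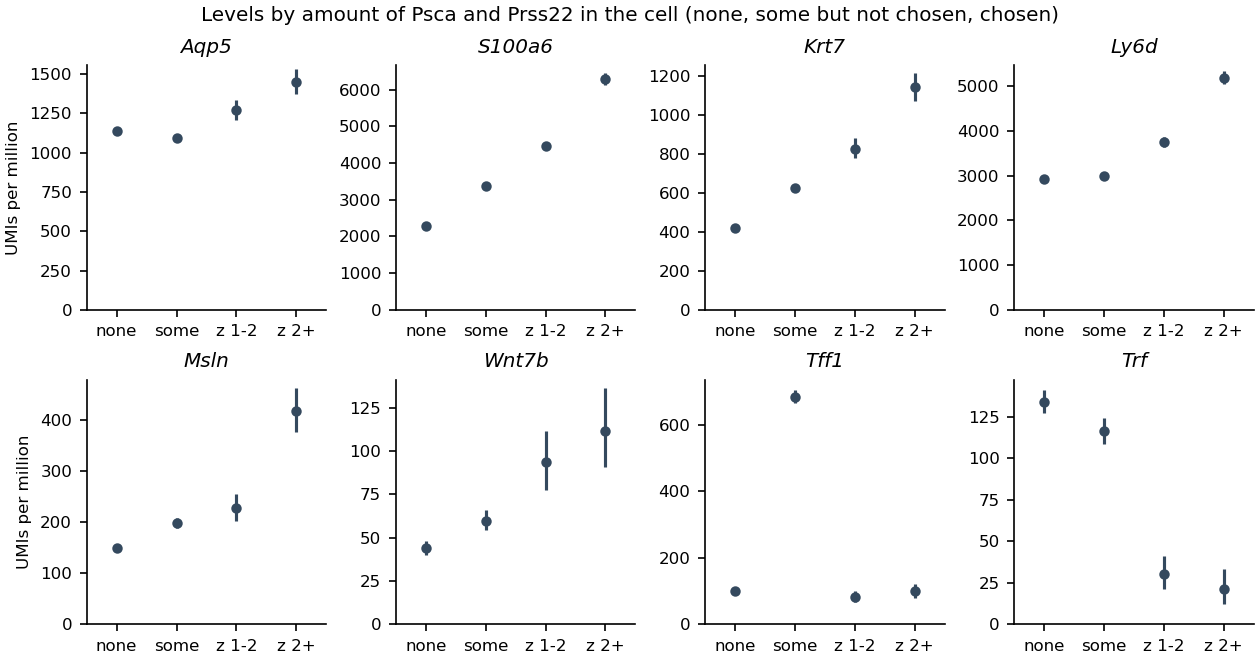
Each panel is 1 gene, with CPM from 0 on the vertical axis and exact 95% Poisson intervals. From left to right are cells with neither Psca nor Prss22, cells with a UMI that were not chosen, chosen cells with a z of 1 to 2, and chosen cells with a z of 2 or more; S100a6 and Krt7 step upward with intervals apart at each step, the last 2 groups overlap for Wnt7b, and Trf stands low in both chosen groups.

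Among the 25 genes with the highest ratios, 7 had over 25% of their chosen-cell UMIs in a single cell and are set out separately below, with that cell. The other 18 had ratios of 1.96 to 2.70 on 39 to 264 UMIs in the chosen cells. All 18 were above 1 in both tags and against the cells with no raised set, and 16 were at 1.5 or more there. They include proteins of the cell surface and its caveolae, small membrane pits. Cav1, the coat protein of caveolae, was at 124 CPM (109.9 to 140.4) against 59.6 CPM, and 79.1 CPM in the cells with no raised set. Ehd2, the ATPase at the neck of caveolae, was at 29.7 CPM (22.8 to 38.0) against 11.9 and 13.0 CPM. A list of caveolar and EHD genes was looked up after Cav1 and Ehd2 had been seen and counts both. All 7 with enough counts were above 1, with a median of 1.33 beside 0.988 over all genes. Only Cav1 and Ehd2 of the 7 were at least 1.5 times as high (2.18% of all genes were). Mall, a proteolipid of membrane rafts, was at 31.1 against 15.1 CPM.

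Wnt7b, a secreted Wnt ligand, was at 101 CPM (87.8 to 115) in the chosen cells, 50.3 CPM in the others and 61.1 CPM in the cells with no raised set. A Wnt7b UMI was present in 55.3% of chosen and 35.3% of other cells, and the ratio was 2.02 in CMO301 and 1.99 in CMO302 cells. Porcn, the enzyme that lipidates Wnt ligands for secretion, was at 22.2 CPM (16.3 to 29.5) against 11.2 CPM, and 15.3 CPM in the cells with no raised set, where the ratio was 1.45. Wls, the carrier that takes Wnt ligands to the surface, was at 75.4 and 72.6 CPM. Wnt4 had fewer UMIs than the minimum and was at 14.6 (9.93 to 20.7) against 5.50 CPM. In the Wnt and stem list, of 6 genes with enough counts, none was at least 1.5 times as high and 3 were at most 1/1.5, where 2.18% and 4.64% of all genes were past those bounds. The median was 0.838. Within that list Ccnd1 (cyclin D1) was at 583 against 415 CPM, and Prom1 (CD133) at 275 against 414 CPM.

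Extracellular matrix genes gave further examples, again as a family looked up afterwards. Of 16 with enough counts, 6 were at least 1.5 times as high, none at most 1/1.5 and 12 above 1, where 2.18% and 4.64% of all genes were past those bounds. The median was 1.35, beside 0.988 over all genes, and the count holds Loxl4 and Ecm1, which were seen first. Loxl4, a matrix cross-linking oxidase, was at 23.1 CPM (17.1 to 30.5) against 8.95 CPM, and 12.7 CPM in the cells with no raised set. Ecm1 was at 25.9 against 10.7 CPM. The basement membrane collagen gene Col4a2 was at 76.4 against 40.7 CPM and its partner Col4a1 at 61.3 against 37.2 CPM. Timp3, which inhibits metalloproteases, was at 254 (233 to 277) against 138 CPM. For Timp3 the Scgb3a1 and Cyp2f2 cells were at 228 CPM (212 to 246), an overlapping interval. Cryab, a small heat shock chaperone, was at 101 (87.8 to 115) against 42.7 CPM, and at 50.6 CPM in the cells with no raised set.

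Some of these genes were high in only a section of the chosen cells. Cav1 was at 165 CPM (142 to 191) in the 81 cells with both Psca and Prss22, and at 75.6 CPM (59.1 to 95.1) in the 91 with Psca alone, no higher than the 79.1 CPM of the cells with no raised set. Loxl4 was at 32.8 CPM (22.9 to 45.7) and 13.6 CPM (7.26 to 23.3) in the same groups, and Krt4 at 855 and 497 CPM, beside 12.7 and 540.1 CPM in the cells with no raised set. Ccnd1 was at 694 and 444 CPM, beside 457 CPM. Other genes stood above the cells with no raised set in both groups: S100a6 was at 5618 and 4597 CPM, Krt7 at 1089 and 799.6 CPM, and Ecm1 at 27.2 and 26.2 CPM. In the 16 cells with Prss22 alone, Cav1 was at 157 CPM (89.6 to 255). Loxl4 and Ecm1 each rested on 1 UMI there, at 9.80 CPM (0.248 to 54.6), beside 10.9 CPM for Ecm1 in the cells with no raised set. These genes were picked after their values were seen, the cells with both genes were also the deeper ones, and the part of depth was not tested.

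RefSeq promoter windows (250 bases before to 50 after a gene's start, GRCm38.p6) were on hand for 16 of the 25 leading genes and for Aqp5. The AP-1 motif TGANTCA, searched on both strands, occurred in 3 of their 21 windows (Ecm1, Tmem40 and Mab21l4), in 2 of 15 windows of the 20 lowest genes, and in 7.81% of all 32851 windows. The TEAD motif GGAATG was in 3 of 21 windows and 14.7% of all, the Grainyhead motif AACCNGNTT in none and 2.31%, and the TATA box TATAAA in 2 and 13.6%. A match is a string of letters and not a bound site. The 250 bases upstream of the 3 genes with the AP-1 letters are shown 5′ to 3′ on the gene's strand (minus in all 3) because these genes were more than 2 times as high in the chosen cells. Capitals mark a motif: AP-1 begins 64 bases before the start of Ecm1 with TATA at 27, 155 before Tmem40 and 180 before Mab21l4.
Ecm1, chr3:95739570-95739819: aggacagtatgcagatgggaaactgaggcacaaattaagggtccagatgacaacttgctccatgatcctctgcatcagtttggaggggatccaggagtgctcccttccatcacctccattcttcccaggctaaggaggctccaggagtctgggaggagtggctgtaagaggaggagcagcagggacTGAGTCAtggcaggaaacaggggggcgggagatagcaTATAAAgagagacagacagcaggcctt
Tmem40, chr6:115762467-115762716: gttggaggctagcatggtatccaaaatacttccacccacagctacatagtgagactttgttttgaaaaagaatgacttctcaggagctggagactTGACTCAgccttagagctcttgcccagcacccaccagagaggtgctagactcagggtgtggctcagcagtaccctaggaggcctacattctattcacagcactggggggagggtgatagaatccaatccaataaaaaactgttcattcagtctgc
Mab21l4, chr1:93160949-93161198: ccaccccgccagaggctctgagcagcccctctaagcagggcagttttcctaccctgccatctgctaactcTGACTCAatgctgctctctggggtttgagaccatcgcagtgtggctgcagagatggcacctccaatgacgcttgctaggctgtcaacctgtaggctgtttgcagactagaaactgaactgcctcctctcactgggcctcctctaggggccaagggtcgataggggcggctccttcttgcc

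Prss22 is a protease. Of 14 other proteases with enough counts, 3 were at least 1.5 times as high, 1 at most 1/1.5 and 8 above 1, where 2.18% and 4.64% of all genes were past those bounds. The median was 1.10, beside 0.988 over all genes. Ctsh, a lysosomal cysteine protease, was at 221 against 147 CPM. Mmp7 (matrilysin), the lower one, was at 55.2 CPM against 112 CPM, and 126 CPM in the cells with no raised set, a ratio of 0.438. For Mmp7 the chosen cells ranked 6 of the 9 kinds from the highest, and the Scgb3a1 and Cyp2f2 cells were at 205 CPM. Of 14 protease inhibitors, 13 were above 1, 4 at least 1.5 times as high and 1 at most 1/1.5. The shares of all genes past those bounds were 2.18% and 4.64%. The median was 1.23, beside 0.988 over all genes. The 4 higher ones were Timp3, Serpinb5, Slpi and Anxa2, of which Anxa2 is an annexin and not an inhibitor. Without Anxa2, 3 of 13 were at least 1.5 times as high (2.18% of all genes were) and the median was 1.22. Serpinb5 was at 23.6 CPM in the chosen cells and 27.9 CPM in the cells chosen by Cyba, Gsta1 and Gsta2. Slpi was at 22.2 CPM, and at 21.7 CPM in the Cxcl2 and Cxcl5 cells. Wfdc2, the most abundant of the list, was at 5618 against 4566 CPM, and at 5644 CPM in the Scgb3a1 and Cyp2f2 cells.

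**Figure D5:**
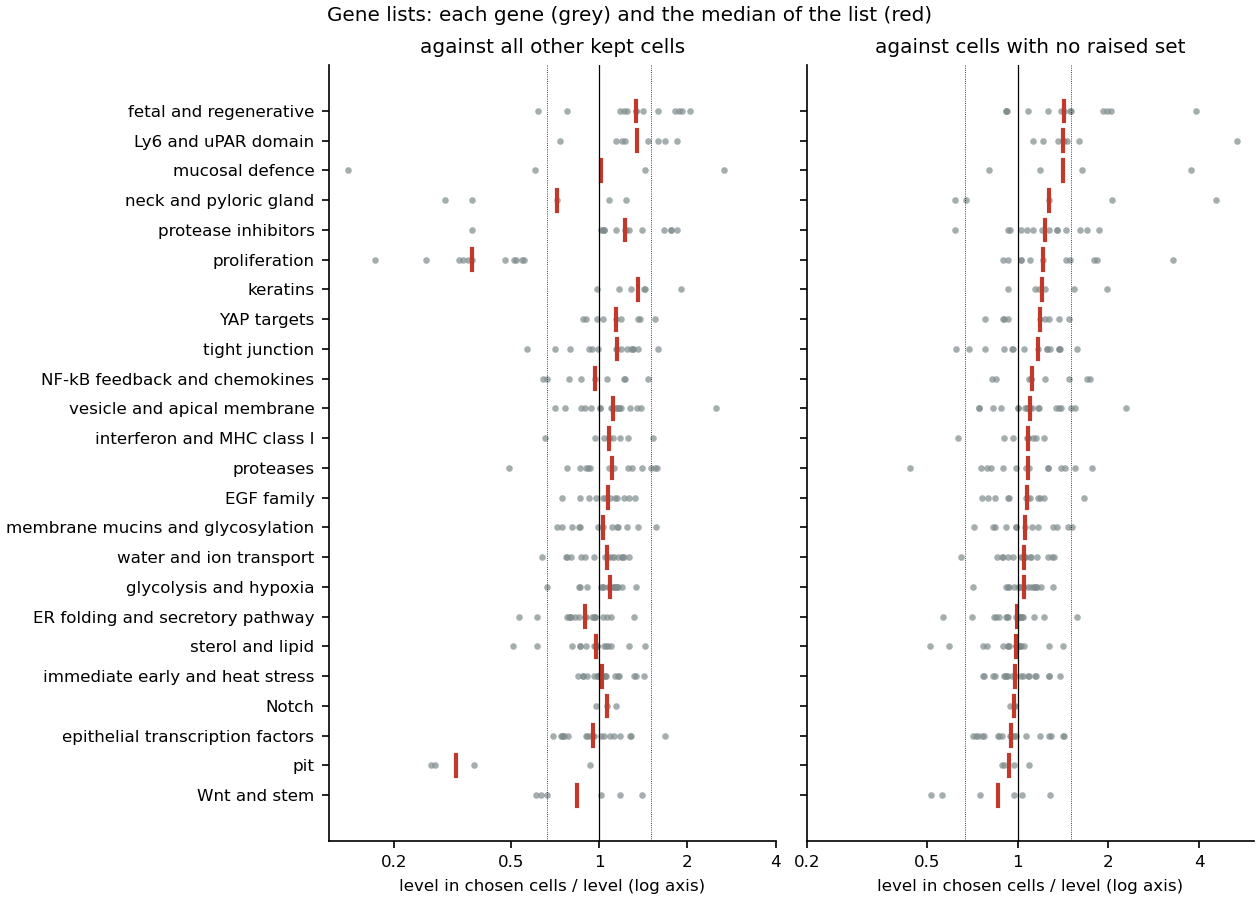
Each grey point is 1 gene with at least 200 UMIs, each red bar the median of its list, and the horizontal log axis the ratio of its level in the chosen cells to that in all other kept cells (left) or in the cells with no raised set (right); dotted lines mark 1/1.5 and 1.5. The medians of the fetal and regenerative, Ly6 and keratin lists lie right of 1 in both panels, and that of the proliferation list lies left of 1 on the left and right of 1 on the right. The Ly6 list as plotted holds Ly6m, a gene of the rule, and its medians are 1.35 and 1.42.

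For water and ion transport, the setting of Aqp5, of 17 genes with enough counts none was at least 1.5 times as high and 1 was at most 1/1.5, beside 2.18% and 4.64% of all genes. The median was 1.06, beside 0.988 over all genes. Tight junction genes had a median of 1.15 over 15 genes, and epithelial transcription factors 0.951 over 19. Xbp1, the transcription factor of the secretory pathway, was at 240.0 against 345 CPM, and 339 CPM in the cells with no raised set. For Xbp1 the chosen cells ranked 7 of the 9 kinds from the highest, and the Scgb3a1 and Cyp2f2 cells were at 491 CPM. The endoplasmic reticulum list had a median of 0.898 over 18 genes. Immediate early and heat stress genes, which rise when cells are taken apart, had a median of 1.02 over 19 genes with none past 1.5 either way. Glycolysis and hypoxia genes had a median of 1.09 over 18.

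Of the 20 genes with the lowest ratios, 16 had 20 or fewer UMIs in the chosen cells, and most are cell cycle genes. Against the cells with no raised set, 6 of the 20 were at most 1/1.5 times as high (Gm3776, Rsad2, Cbr2, Ncaph, Trf and Lockd) and 8 were above 1. All 11 proliferation genes with enough counts were at most 1/1.5 times as high against all other cells (4.64% of all genes were), with a median of 0.369. Against the cells with no raised set none was (3.01% of all genes), 3 were at least 1.5 times as high (3.41% of all genes), and the median was 1.22. The choice of cells bears on these genes in both comparisons, so neither value is read.

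Trf (transferrin), the iron carrier, stayed low in both. It was at 26.4 CPM (19.9 to 34.3) in the chosen cells, 127 CPM in the others and 90.2 CPM in the cells with no raised set, a ratio of 0.208 (0.157 to 0.271) and then 0.293. The chosen cells were lowest of the 9 kinds, next to 27.1 CPM (20.6 to 35.1) in the Ndrg1 and Ly6m cells, which does not differ beyond counting error. The Scgb3a1 and Cyp2f2 cells were at 342 CPM. Tmem176a and Tmem176b, paired membrane proteins, were at 1044 and 826 CPM against 1877 and 1361 CPM, and the ratios hardly differed by comparison (0.556 and 0.607, then 0.578 and 0.628). For both, the chosen cells ranked 7 of the 9 kinds from the highest, so they were not the lowest. The Scgb3a1 and Cyp2f2 cells were highest, at 3843 and 2571 CPM. Neat1, a nuclear long noncoding RNA, was at 266 against 412 CPM. Cbr2, a carbonyl reductase, rested on 5 UMIs in the chosen cells.

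All 13 mitochondrially encoded genes were lower in the chosen cells. Together they were at 32514 CPM (32272 to 32758) against 41173 CPM, a ratio of 0.790 (0.784 to 0.796), and 0.772 against the cells with no raised set. Only mt-Nd5 and mt-Nd6 were at most 1/1.5 times as high (4.64% of all genes were), at 303 against 466 CPM and 94.8 against 154 CPM. A smaller mitochondrial share raises the CPM of the other genes by arithmetic, and its part in the ratios above was not tested.

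The pit cell genes need care for another reason. Tff1, Gkn1 and Gkn2 encode secreted products of gastric surface mucous cells. In the chosen cells they were at 88.6, 21.2 and 16.5 CPM, against 332, 76.7 and 43.9 CPM in the others, but 81.0, 23.6 and 16.9 CPM in the cells with no raised set. Most of the excess sat in 28 cells that also had a Psca and Prss22 z of at least 1 but a higher z for Cyba, Gsta1 and Gsta2. Those 28 cells held 67.6% of all Tff1 UMIs, 62.8% of Gkn1 and 57.0% of Gkn2. Their levels were 12251 CPM (11882 to 12628) for Tff1, 2628 CPM for Gkn1 and 1380 CPM for Gkn2. Within them the UMIs were uneven: 20 had a Tff1 UMI, 7 had 10 or more, and the 5 highest held 4059 of 4172.

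Psca in these 28 cells was at 611 CPM and also uneven: 26 had a Psca UMI, 9 had 10 or more, and the 5 highest held 133 of 208. Over the 28 cells summed, S100a6 was higher still at 8216 CPM and Krt7 at 1210 CPM (1096 to 1332), whereas Aqp5 was at 379 CPM (316 to 450.1), Ly6c1 at 461 CPM, Ly6a at 1788 CPM and Wnt7b at 29.4 CPM. The other 94 cells of the Cyba, Gsta1 and Gsta2 kind had Tff1 at 477 CPM. Counting every cell with a z of at least 1, whatever its other sets, the Tff1 ratio became 13.1 and the Aqp5 ratio 1.02. Whether the cells rich in Tff1 were those rich in Psca was not tested.

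The 7 ratios set aside above belong to few cells. In 1 chosen cell of 7374 UMIs and only 775 genes, 4 genes gave 3119 UMIs, or 42.3%: B020031M17Rik 1810, Gm21818 686, Sp110 400 and Gm20767 223. That cell had 2 Psca UMIs and none of Prss22 or Aqp5, a z of 1.39 and a mitochondrial share of 0.841%. Over all chosen cells their ratios were 265, 529, 71.6 and 190. Without that cell, an exclusion made after seeing the data, B020031M17Rik was at 0.440, Sp110 at 0.887 and Gm20767 at 0.852, and Gm21818 had no UMI in the chosen cells. The remaining 3 of the 7 were AC168977.1, Nelfa and Dmbt1, and none of the 7 is read as a feature of the chosen cells.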

How the data were processed

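The deposited matrix holds raw UMI counts per gene and barcode. The submitters' processing notes name Cell Ranger 6.1.2 and the GRCm38/mm10 genome. It covers 32285 genes, 12 multiplexing tags and 1991 barcodes with 20236916 gene UMIs. Tags were kept out of gene totals. The filters on genes and mitochondrial share removed 99 barcodes. Counts were summed over cells and given per 1000000 gene UMIs (CPM). Intervals are exact Poisson (levels), Clopper-Pearson (shares) or conditional binomial (ratios). With 1 library no test was made, and a fold of 1.5 is a rule of size. The script for ratios was tested on simulated data. Genes named in the text come from Psca, Prss22 and Aqp5, the genes of the rule, and the 25 highest and 20 lowest ratios. The extremes and most abundant genes of fixed lists were drawn on too, and not every gene of these groups is named. The abundant genes and families described as looked up afterwards were added. The members and lists were chosen with earlier results of these data known. Scrublet (scanpy 1.11.5) marked 12 cells (0.634%) as doublets, 1 of them chosen, and none was removed. Gene positions come from GENCODE M21, which held 32158 of the 32285 identifiers. Python 3.11.15, numpy 2.4.6, scipy 1.17.1 and pandas 2.3.3 were used. The promoters of Psca and Prss22 were not analysed here.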

Additional observations from a re-analysis of the deposited data

Results flagged for a closer look

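The multiplexing tags are data outside the main measurement. CMO301 was the highest tag in 55.3% of the chosen cells (47.9 to 62.6%) and in 56.2% of the others, and CMO302 in the rest. What the tags separate is not given in the sources used here.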

How the results depend on the processing

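No paired analysis was possible because there is 1 library and no test. In all, 125 results were recomputed under 15 settings, of which 1 was added after seeing the data. The 4 main results are the share of cells chosen, the Aqp5 ratio and the numbers of genes past 1.5 either way. Of their values under these settings, 27 moved and 28 did not. Only the Aqp5 ratio could turn direction, and it did not. The share of cells chosen was 12.7% at a z of at least 0.5, 6.82% at 1.5, 4.23% at 2, and 15.3% with a z of at least 1 whatever the other sets. The Aqp5 ratio under those 4 rules was 1.13, 1.25, 1.28 and 1.02. It was 1.14 with Psca alone, 1.28 with Prss22 alone, 1.25 after thinning, 1.10 against the cells with no raised set, and 1.25 and 1.14 within the CMO301 and CMO302 cells. The number of genes at least 1.5 times as high was 320 at a z of at least 2, 82 after thinning, 228 against the cells with no raised set, 234 and 276 within CMO301 and CMO302, and 444 with a minimum of 50 UMIs. The number at most 1/1.5 was 722, 109, 201, 467, 654 and 1071 under the same settings, and 136 with a z of at least 1 whatever the other sets. The cause of these moves was not tested.

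Among the other results past a fold of 1.5 as reported, 41 values turned direction. Among those not past it, another 51 values of 16 results crossed 1. These include Ly6m, from 0.733 to 5.35, and the neck and pyloric gland median, from 0.721 to 1.27, both against the cells with no raised set. B020031M17Rik, Gm20767 and Sp110 had ratios of 0.0140, 0.0562 and 0.117 at a z of at least 1.5, where Nelfa was at 0.866. At a z of at least 2 they were 0, 0 and 0.150, with Nelfa at 0.996. With Prss22 alone they were 0.0133, 0 and 0.0550, with Nelfa at 0.964 and Spp1 at 0.934. With at least 1000 genes and at most 10% mitochondrial UMIs, B020031M17Rik was at 0.818 and Gm20767 at 0.939. Within the CMO301 cells B020031M17Rik was at 0 and Sp110 at 0.796. Without the 1 cell rich in them they were 0.440, 0.852 and 0.887. Gm21818 was at 0 in each of these 6 settings, none of which has that cell among the chosen. With a z of at least 1 whatever the other sets, Gm3776 was at 6.45, Tff1 at 13.1, Gkn1 at 10.9, Gkn2 at 8.61 and the pit list's median at 9.75. With Psca alone Gkn1 was at 2.67. Against the cells with no raised set Pclaf was at 1.19, Ccnb1 at 1.03, Esco2 at 1.17, Ccnb2 at 1.22, Tff1 at 1.09, Smc2 at 1.67, Hist1h2ae at 1.24, Cdca8 at 1.04 and the proliferation median at 1.22. Genes with few UMIs and cells near the cut limit what this depth can show.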
